A study of Mus musculus with 9 samples.

Results

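The genes described here are 45 mouse genes of the synapse, chosen by name: 18 presynaptic genes and 27 receptor, scaffold, adhesion and calcium-signalling genes. All 45 were found on the array, 41 under their present symbol and 4 (Dlg1, Dlg2, Dlg3 and Dlg4) under an older spelling, with 102 probes among them. After probes close to background were left out, 44 of the 45 could be tested, within a fit over 24896 genes. Grin2a, an NMDA receptor subunit, was the exception, since the scanner software placed its only probe too close to background on each of the 9 arrays.

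RNA of cells sorted for a fluorescent reporter was measured on one-colour Agilent arrays, 3 arrays for each of 3 cell populations. The first population was hippocampal cells of mice that carry DsRed under the Dcx promoter (DCX-DsRed); Dcx encodes doublecortin, a microtubule-associated protein of young neurons. The remaining populations came from mice that carry GFP under the Sox2 promoter (Sox2-GFP), one from the hippocampus and one from the subventricular zone (SVZ), the neurogenic layer along the lateral ventricle; Sox2 encodes a transcription factor of neural stem cells. All mice were 6 to 8 weeks old and untreated as far as the labels say, and each population differs from the others in reporter line, region or both. Tissue from 10 dissections was pooled for each sort, and each array carried amplified, Cy3-labelled RNA of 1000 cells. The labels do not say whether the 3 arrays of a population came from separate pools, so the p-values measure the spread between these arrays, which may be technical. In sorted cells measured in bulk, fewer cells of a type and less RNA per cell cannot be told apart.

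Synaptic transmission depends on vesicles that are filled with transmitter, docked and fused by SNARE proteins when calcium binds synaptotagmin. The released glutamate or GABA binds receptors that scaffold proteins hold opposite the release site, and neurexins and neuroligins link both sides across the cleft. In adult hippocampus and SVZ these genes are known from mature neurons, which acquire synapses as newborn neurons mature, while some of them are also expressed in glia.

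Levels are log2 signals relative to the 75th percentile of their array, so a level of 0 is the signal at that percentile. A difference of 1 is a 2-fold change. Levels are set side by side only within a gene, since probes differ in brightness for reasons other than RNA. A gene passed the test when its p-value, adjusted over all genes with the Benjamini-Hochberg method in limma, was under 0.05.

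The labelled populations were compared with marker genes first. Neither reporter gene separated the hippocampal populations in the labelled direction past the test. Dcx was at -1.29, -0.78 and 1.28 in DCX-DsRed cells and at -0.20, -0.77 and -2.88 in hippocampal Sox2-GFP cells (adjusted p = 0.779). On the SVZ Sox2-GFP arrays Dcx was at 2.57, 3.05 and -2.36. Sox2 was lower on every hippocampal Sox2-GFP array than on every DCX-DsRed array, by -1.27 (adjusted p = 0.333). Immature neuron genes, 8 of 9 measured, summed to 3.99 to 4.68 in DCX-DsRed cells and to 3.32 to 3.62 in hippocampal Sox2-GFP cells. In SVZ Sox2-GFP cells they summed to 3.20 to 5.39. Of the 8 genes, 6 were lower in hippocampal Sox2-GFP than in DCX-DsRed cells, against 53.6% of all genes, and 0 passed. The summed level of 9 mature neuron genes that are not synaptic overlapped between all populations, at 3.66 to 3.92 (log2) in DCX-DsRed cells, 3.42 to 4.01 in hippocampal and 3.65 to 4.26 in SVZ Sox2-GFP cells. By contrast, the summed level of 12 genes of myelinating oligodendrocytes was 8.15 to 8.52 in DCX-DsRed cells, 2.5 to 5.45 in hippocampal and 4.83 to 6.45 in SVZ Sox2-GFP cells. Choroid plexus genes, 9 of 10 measured, summed to 5.62 to 7.34 in the hippocampal Sox2-GFP cells and to at most 1.48 elsewhere. One array, replicate C of the hippocampal Sox2-GFP cells, stood apart: over all genes it correlated at 0.816 and 0.783 with replicates A and B, which correlated at 0.919 with each other. Values without it are given below for the gene group medians and for Dlg2, Gria1, Gria2, Gria3 and Grm3.

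Between the hippocampal populations 5 of the 44 genes passed (11.4%), against 3.19% of all genes. Sv2a, Syt11, Gria4 and Dlg2 were lower in the Sox2-GFP cells, where 1.43% of all genes were called lower, and Dlg4 was higher, as were 1.76% of all genes. The 3 arrays of one population lay wholly apart from the 3 of the other for 15 genes (24.7% of all genes did so), of which 12 were lower (13.2% of all genes) and 3 higher (11.5%) in the Sox2-GFP cells. At an unadjusted p under 0.05 there were 13 of 44 genes, against 16.9% of all genes. Of the 44 differences 28 were below 0 and 16 above, against 53.6% below and 46.4% above over all genes, and their median was -0.51, against -0.08. Without the hippocampal Sox2-GFP array C that median was -0.11, with 25 differences below 0 and 4 genes past the test, Dlg2 being the one lost.

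Between SVZ Sox2-GFP and hippocampal DCX-DsRed cells 3 of the 44 genes passed, against 1.52% of all genes. Dlg2 and Sv2a were lower in the SVZ cells (0.98% of all genes) and Dlg4 was higher (0.542%). Arrays lay apart for 15 genes, against 21.1% of all genes, with 6 higher (10.7% of all genes) and 9 lower (10.4%). Of the 44 differences 23 were below 0 and 21 above, against 51.3% and 48.7% of all genes, and the median of -0.01 was close to that over all genes (-0.02).

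Between the Sox2-GFP populations of SVZ and hippocampus 0 of the 44 genes passed in limma, against 0.402% of all genes (0.0442% higher and 0.357% lower in the SVZ), and 4 had an unadjusted p under 0.05, against 10.8% of all genes. Arrays lay apart for 9 genes (16.9% of all genes), 7 of them higher in the SVZ (8.86% of all genes) and 2 lower (8.06%). Of the 44 differences 35 were above 0, against 54.6% of all genes, with a median of 0.48. Without the hippocampal Sox2-GFP array C there were 28 of 44 above 0 and the median was 0.16. The comparisons share arrays, so values of one gene in different comparisons are not independent.

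**Figure D1:**
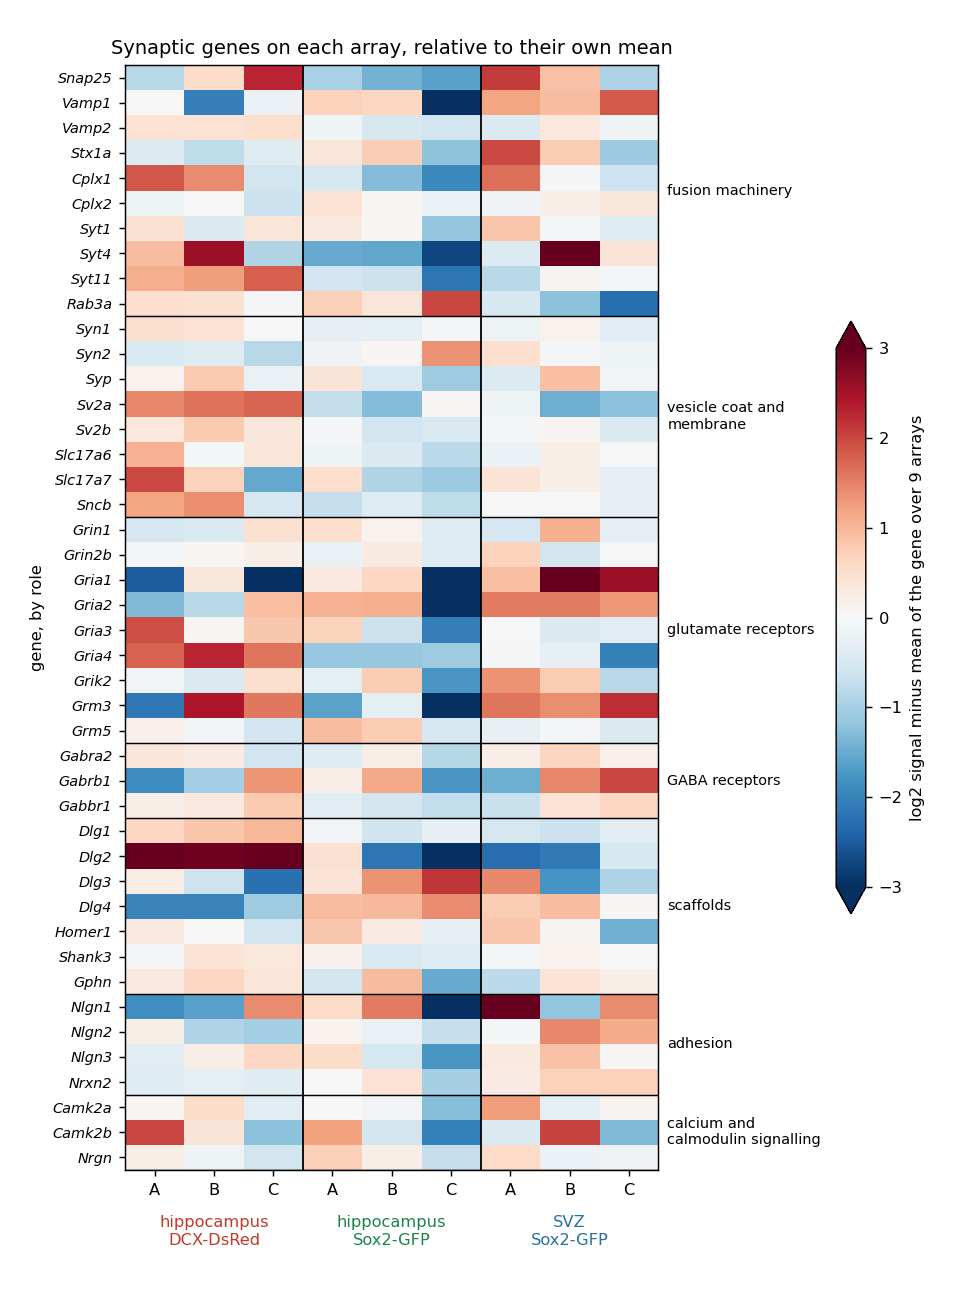
Level of each of 44 synaptic genes (rows, by role) on 9 arrays (columns, by population), as the log2 signal minus the mean of that gene over the arrays; the colour scale ends at 3 in both directions. Dlg2, Sv2a and Syt11 are red on all 3 DCX-DsRed arrays, and 39 of 44 genes lie below their mean on the hippocampal Sox2-GFP array C.

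**Figure D2:**
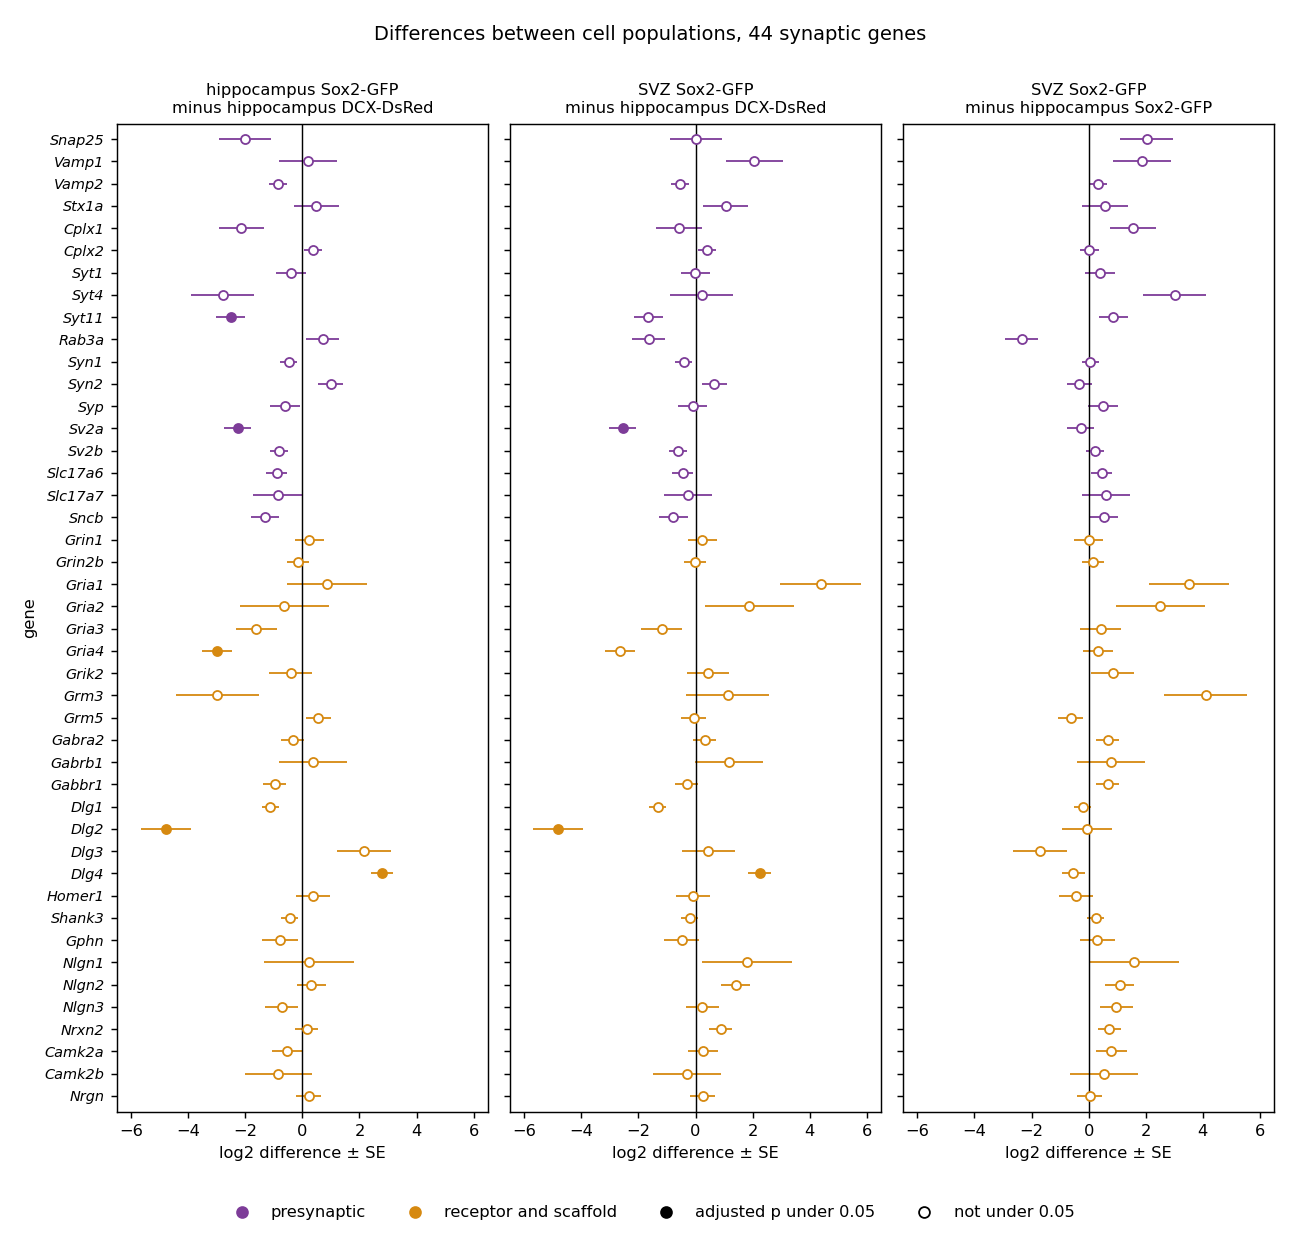
Difference in log2 signal between populations for 44 synaptic genes, with its standard error (3 arrays a group), presynaptic genes in purple and the others in orange; filled points have an adjusted p under 0.05. There are 5 filled points in the left panel, 3 in the middle one and 0 in the right one.

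The fusion machinery includes the SNARE proteins, their regulators and the synaptotagmins, and 1 of its 10 genes passed the test between the hippocampal populations. This was Syt11, a synaptotagmin that does not bind calcium and is also found in glia. Its level was 4.65, 4.81 and 5.35 on the DCX-DsRed arrays A, B and C. On the hippocampal Sox2-GFP arrays it was 2.99, 2.91 and 1.39, and on the SVZ Sox2-GFP arrays 2.72, 3.62 and 3.52. The 3 DCX-DsRed values were the highest of the 9. The hippocampal Sox2-GFP mean lay below the DCX-DsRed mean by a difference of -2.51 ± 0.51 (SE, n = 3 and 3; 5.70-fold; adjusted p = 0.0397). The SVZ mean lay below it too, by -1.65 ± 0.51, with an adjusted p of 0.187 that did not pass. All 4 other Syt11 probes gave the same sign between the hippocampal populations, from -3.86 to -1.43.

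Snap25, the plasma membrane SNARE, and Syt4, a synaptotagmin of dense-core vesicles, shared an order of populations but did not pass. Snap25 was at -3.29, -1.89 and -0.17 on the DCX-DsRed arrays, at -3.42, -3.87 and -4.08 on the hippocampal Sox2-GFP arrays and at -0.36, -1.57 and -3.36 on the SVZ arrays. On this tested probe the hippocampal Sox2-GFP values were the lowest, by narrow margins, and the DCX-DsRed and SVZ values spread widely and overlapped. The difference was -2.01 ± 0.92 against DCX-DsRed cells (adjusted p = 0.320), and the SVZ cells were 2.03 ± 0.92 above the hippocampal Sox2-GFP cells (adjusted p = 0.480). On another Snap25 probe the hippocampal Sox2-GFP values were again the lowest. On a further one (-2.90, -3.24 and -5.06) they overlapped with DCX-DsRed (-3.13, -1.56 and -1.69) and SVZ values (-1.55, -1.54 and -4.15). For Syt4 the levels were -4.80, -3.16 and -6.63 in DCX-DsRed cells and -6.13, -2.47 and -5.35 in SVZ cells. It was not well above background on any of the 3 hippocampal Sox2-GFP arrays (-7.23, -7.29 and -8.47). The tested Syt4 probe was well above background on only 5 arrays, so not every DCX-DsRed and SVZ value was. With these values taken as measured, its DCX-DsRed level was 3.37-fold higher than the hippocampal Sox2-GFP level (adjusted p = 0.251). Its SVZ level was 3.92-fold higher (adjusted p = 0.388). The lower side of each such fold is the dimmest signal well above background on the hippocampal Sox2-GFP arrays or the gene's own, whichever was higher. Since the upper side is partly near background, neither fold is a firm lower limit.

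Rab3a and Vamp1 went other ways. Rab3a, a small GTPase of synaptic vesicles, was at 0.77, 0.71 and 0.22 in DCX-DsRed cells, at 0.97, 0.61 and 2.26 in hippocampal Sox2-GFP cells and at -0.22, -0.98 and -2.0 in SVZ cells. The SVZ values were below all 6 hippocampal ones. Their difference from the hippocampal Sox2-GFP cells, -2.35 ± 0.57, had the smallest p-value of the 44 genes between the Sox2-GFP populations, but its adjusted p was 0.187. Vamp1, a vesicle SNARE, was at 1.34, -0.70 and 1.18 in DCX-DsRed cells, 2.05, 1.98 and -1.63 in hippocampal Sox2-GFP cells and 2.53, 2.29 and 3.21 in SVZ cells. Its SVZ values were the highest of the 9, without passing against DCX-DsRed cells (2.07 ± 1.01, adjusted p = 0.423), and its hippocampal Sox2-GFP array C lay far below arrays A and B. On the tested probes the other genes of the group, Vamp2, Stx1a, Cplx1, Cplx2 and Syt1, had differences between -2.14 (Cplx1) and 0.48 (Stx1a) between the hippocampal populations, none past the test. Vamp2 was the tightest of them in DCX-DsRed cells (3.07 ± 0.06, SD, n = 3), with all 3 values above the Sox2-GFP values of both regions. The dimmer Vamp2 probes overlapped between DCX-DsRed cells and each Sox2-GFP population, and the Vamp2 probes had differences of both signs. A dimmer Cplx2 probe was higher on every hippocampal Sox2-GFP array (0.80, 0.54 and 0.09) than in DCX-DsRed cells (-0.90, -0.92 and -3.22). So was another (-0.86, -0.17 and -0.11 against -1.64, -2.07 and -1.36), while a further Cplx2 probe overlapped. With the median over all probes of a gene, Cplx2 passed between the hippocampal populations.

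Of the 8 genes of the vesicle coat and membrane, 7 had a difference below 0 between the hippocampal populations, with a median of -0.85. Sv2a, a vesicle glycoprotein and the binding site of the drug levetiracetam, passed the test. It was at 3.22, 3.40 and 3.53 in DCX-DsRed cells, at 1.07, 0.47 and 1.80 in hippocampal Sox2-GFP cells and at 1.65, 0.31 and 0.54 in SVZ cells. No Sox2-GFP array of either region reached the DCX-DsRed values. The hippocampal Sox2-GFP cells differed by -2.27 ± 0.47 (4.81-fold, adjusted p = 0.0441) and the SVZ cells by -2.55 ± 0.47 (5.86-fold, adjusted p = 0.0431). The second Sv2a probe gave -2.87 and -3.55 for these differences.

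Syn1, the vesicle phosphoprotein synapsin I, varied far less. Its level was 4.38, 4.33 and 3.88 in DCX-DsRed cells, 3.67, 3.64 and 3.86 in hippocampal Sox2-GFP cells and 3.76, 4.02 and 3.58 in SVZ cells. The hippocampal populations were separated only by the gap between 3.88 and 3.86, with a difference of -0.47 ± 0.30 (adjusted p = 0.469). Syn2, synapsin II, was the only gene of this group with a difference above 0 between the hippocampal populations (0.99 ± 0.44, adjusted p = 0.313). Sv2b and Slc17a6, the vesicular glutamate transporter VGLUT2, were lower on all hippocampal Sox2-GFP arrays than on the DCX-DsRed arrays, by -0.82 ± 0.32 and -0.90 ± 0.37, without passing (adjusted p = 0.235 and 0.271). Their other probes did not share that direction: a second Slc17a6 probe was higher on all hippocampal Sox2-GFP arrays, by 0.84, and the further Sv2b probes gave -0.03 and 1.25. Slc17a7, the transporter VGLUT1 of hippocampal excitatory neurons, exceeded background clearly on 2 of 3 arrays of the DCX-DsRed cells, 2 of 3 of the SVZ cells and 0 of 3 of the hippocampal Sox2-GFP cells. Syp, the vesicle protein synaptophysin, and Sncb, beta-synuclein, overlapped between the hippocampal populations.

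Promoter sequences were at hand for 34 of the 45 genes, from RefSeq (build GRCm38.p6), as windows from 250 bases before to 50 bases after an annotated start. They are shown for the presynaptic genes that passed the test and for Syn1, as 100 bases before the start, 5′ to 3′ on the strand of the gene. The Syt11 stretch, chr3:88772600-88772699 on the minus strand, ends at the start site, and capitals mark 2 copies of the GC box GGGCGG, the letters bound by Sp1.
Syt11: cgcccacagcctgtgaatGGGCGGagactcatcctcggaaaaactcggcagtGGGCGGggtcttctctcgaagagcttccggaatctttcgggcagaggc
The Sv2a stretch, chr3:96181064-96181163 on the plus strand, lies from 163 to 64 bases before the start, and capitals mark the letters ACAATGG, which Sox proteins can bind.
Sv2a: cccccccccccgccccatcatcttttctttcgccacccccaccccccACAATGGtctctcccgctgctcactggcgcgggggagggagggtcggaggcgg
The Syn1 stretch, chrX:20921024-20921123 on the minus strand, lies from 205 to 106 bases before the start, and capitals mark the cAMP response element TGACGTCA.
Syn1: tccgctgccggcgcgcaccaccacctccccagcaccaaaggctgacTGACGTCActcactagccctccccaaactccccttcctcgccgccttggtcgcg
Each motif was searched on both strands. GGGCGG was in a window of 25 of the 34 genes (13 of 15 presynaptic and 12 of 19 others) and in a window of 38.2% of all 27025 genes of the table, where genes with several starts have more than 1 window. TGACGTCA was in a window of 1 of the 34, Syn1 (1.79% of all 32851 windows), and ACAATGG in those of 2, Sv2a and Vamp1 (3.66% of all windows). A match describes these letters only, and none of these data measured binding.

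Glutamate receptors are the ligand-gated AMPA (Gria), NMDA (Grin) and kainate (Grik) channels and the G-protein-coupled metabotropic (Grm) receptors, and 1 of the 9 tested genes passed between the hippocampal populations. Gria4, an AMPA subunit known from interneurons and from oligodendrocyte precursors, was at 0.42, 0.93 and 0.26 in DCX-DsRed cells. It was at -2.47, -2.48 and -2.42 in hippocampal Sox2-GFP cells and at -1.38, -1.59 and -3.38 in SVZ cells. Its DCX-DsRed values were above all 6 others, and the hippocampal Sox2-GFP values were the closest together of any receptor or scaffold gene in that population (SD 0.04). The hippocampal difference was -2.99 ± 0.53 (7.96-fold, adjusted p = 0.0259). The SVZ cells differed from the DCX-DsRed cells by -2.66 ± 0.53, with an adjusted p of 0.0563 that missed the threshold and ran from 0.0142 to 0.541 over the other settings. All 3 other Gria4 probes gave the same sign between the hippocampal populations, from -3.86 to -2.53.

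Gria1, Gria2 and Grm3 had their high values in the SVZ, with none past the test. Gria1 and Gria2 encode the AMPA subunits most abundant in hippocampal pyramidal neurons. Gria1 was at -7.38, -4.55 and -7.99 in DCX-DsRed cells, at -4.61, -4.26 and -8.44 in hippocampal Sox2-GFP cells and at -3.98, -0.48 and -2.31 in SVZ cells. This probe was well above background on 1, 2 and 3 arrays of these populations. Its SVZ values were above all others, with a difference of 4.38 ± 1.41 from DCX-DsRed cells (adjusted p = 0.205) and of 3.51 ± 1.41 from hippocampal Sox2-GFP cells (adjusted p = 0.428), or 2.18 without their array C. A brighter Gria1 probe, left out of the fit because its SVZ spot on array C was an outlier, was well above background on the 8 other arrays. It was at 0.34, 0.17 and 1.27 in DCX-DsRed cells, at 1.76, 2.12 and -3.71 in hippocampal Sox2-GFP cells and at 2.07 and 2.96 in SVZ cells. On it the SVZ values again exceeded the DCX-DsRed values, by 1.93, but overlapped with the hippocampal Sox2-GFP values.

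Gria2 was at -3.60, -3.13 and -1.38 in DCX-DsRed cells, at -1.24, -1.23 and -7.53 in hippocampal Sox2-GFP cells and at -0.73, -0.73 and -0.98 in SVZ cells. On its hippocampal Sox2-GFP array C it lay 6.29 below the mean of arrays A and B (log2), which made it the most variable of the 44 genes in that population (SD 3.63). Its SVZ difference from that population was 2.51 ± 1.56 (adjusted p = 0.604), and 0.42 without array C. The difference between the hippocampal populations was -0.63 with array C and 1.47 without it. A second probe of Gria2, left out of the fit because 1 DCX-DsRed spot was flagged by the scanner software, was brighter and lay lowest on the same array: 3.25 and 3.48 on arrays A and B, -3.39 on array C.
Grm3, a metabotropic receptor also found in astrocytes, was at -5.32, -0.76 and -1.60 in DCX-DsRed cells, -4.79, -3.44 and -8.40 in hippocampal Sox2-GFP cells and -1.57, -1.78 and -0.97 in SVZ cells. The SVZ values lay above the hippocampal Sox2-GFP values and within the DCX-DsRed range. The difference between the Sox2-GFP populations was 4.11 ± 1.45 (adjusted p = 0.368), or 2.68 without array C. The only Grm3 probe was well above background on 2 DCX-DsRed, 2 hippocampal Sox2-GFP and 3 SVZ arrays.

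Gria3, the fourth AMPA gene, was at 1.57, -0.31 and 0.45 in DCX-DsRed cells, at 0.30, -1.02 and -2.42 in hippocampal Sox2-GFP cells and at -0.36, -0.80 and -0.69 in SVZ cells. Its hippocampal populations overlapped, with a difference of -1.62 ± 0.72 (adjusted p = 0.306), or -0.93 without array C. Grin1, the obligatory NMDA subunit, and Grin2b overlapped in all 3 comparisons, with differences of at most 0.25 in size on the tested probes. A dimmer Grin2b probe was at -1.95, -2.32 and -2.95 in DCX-DsRed cells and at -0.04, -2.17 and -0.43 in SVZ cells, with overlap. A brighter Grin2b probe was left out of the fit because it was flagged on SVZ array A. It was at 0.04, -0.35 and -1.01 in DCX-DsRed cells and at -1.46, -0.94 and -1.51 in hippocampal Sox2-GFP cells, also with overlap. Grik2 and Grm5 overlapped in all 3 comparisons as well. The hippocampal Sox2-GFP array C was lower than the mean of arrays A and B for 8 of the 9 receptors, by a median of -1.98 (log2), and without it the median hippocampal difference of the receptors changed from -0.41 to 0.25.

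The promoter of Gria4, which passed the test, is shown as the 100 bases before its start, chr9:4796235-4796334 on the minus strand, where none of the motifs searched was found. That of Gria2 is shown for the one match among the 34 genes to the RE1 core, the element bound by the repressor REST, which keeps neuronal genes low outside neurons. It lies within chr3:80802949-80803048 on the minus strand, from 213 to 114 bases before the start, and capitals mark the match, which is the reverse complement of the element.
Gria4: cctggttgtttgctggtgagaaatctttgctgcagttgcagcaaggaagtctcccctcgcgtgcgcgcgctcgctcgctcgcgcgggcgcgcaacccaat
Gria2: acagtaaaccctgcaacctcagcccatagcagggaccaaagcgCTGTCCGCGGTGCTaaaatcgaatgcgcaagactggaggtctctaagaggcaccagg
The RE1 core was in 17 of the 32851 windows, 0.0517% of them.

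GABA receptors were represented by 3 genes, and none passed in any comparison. Gabbr1, a subunit of the metabotropic GABA-B receptor, was at 3.67, 3.79 and 4.27 in DCX-DsRed cells, 3.15, 2.92 and 2.75 in hippocampal Sox2-GFP cells and 2.82, 3.90 and 4.10 in SVZ cells. Its hippocampal populations did not overlap (-0.97 ± 0.41, adjusted p = 0.276). Gabrb1, a GABA-A subunit, was at -3.38, -2.51 and -0.18, at -1.3, -0.36 and -3.26 and at -2.97, -0.07 and 0.49 on the arrays of the same populations. Its populations overlapped in every comparison, as did those of Gabra2 on the tested probe. A dimmer Gabra2 probe was higher on all SVZ arrays (-2.05, 0.25 and -1.41) than on the DCX-DsRed arrays (-3.51, -3.73 and -3.93).

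Scaffolds held the largest differences of the 44 genes from DCX-DsRed cells and went both ways: of 7 genes, Dlg2 passed as lower and Dlg4 as higher in the Sox2-GFP cells of both regions than in the DCX-DsRed cells. Both belong to the MAGUK family, which anchors receptors beneath the postsynaptic membrane; Dlg2 encodes PSD-93 and Dlg4 PSD-95. Dlg2 was at 1.97, 1.62 and 2.11 in DCX-DsRed cells, at -0.84, -3.47 and -4.32 in hippocampal Sox2-GFP cells and at -3.58, -3.42 and -1.78 in SVZ cells. The DCX-DsRed arrays were close together and more than 2 log2 units above every other array. The differences were -4.78 ± 0.88 in the hippocampus (27.4-fold, adjusted p = 0.0289) and -4.83 ± 0.88 for SVZ against DCX-DsRed cells (28.4-fold, adjusted p = 0.0399). Dlg2 has 1 probe on the array, so no second probe bears on it. The hippocampal difference was -5.79 without Sox2-GFP array A and -4.05, with an adjusted p of 0.0533, without array C.

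Dlg4 was at -1.46, -1.49 and -0.55 in DCX-DsRed cells, at 1.45, 1.49 and 1.93 in hippocampal Sox2-GFP cells and at 1.29, 1.43 and 0.55 in SVZ cells. All 6 Sox2-GFP values were above all 3 DCX-DsRed values. The differences were 2.79 ± 0.40 in the hippocampus (6.89-fold, adjusted p = 0.0119) and 2.26 ± 0.40 for SVZ against DCX-DsRed cells (4.78-fold, adjusted p = 0.0381). The 2 Dlg4 probes disagreed in size: the dimmer one gave 0.48 and 0.50 for these differences, with overlapping arrays. With both probes averaged the hippocampal difference was 1.63 (adjusted p = 0.0455), and the SVZ difference of 1.38 no longer passed (adjusted p = 0.112).

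Dlg3, which encodes SAP102, was at -1.77, -2.62 and -4.23 in DCX-DsRed cells, at -1.61, -0.66 and 0.14 in hippocampal Sox2-GFP cells and at -0.55, -3.77 and -2.92 in SVZ cells. The hippocampal populations were apart by a narrow margin (2.16 ± 0.95, adjusted p = 0.296). Dlg1, SAP97, was lower on every Sox2-GFP array than on every DCX-DsRed array, by -1.12 ± 0.29 in the hippocampus and -1.32 ± 0.29 in the SVZ, and missed the threshold in both (adjusted p = 0.0901 and 0.0802). Of the 4 MAGUK genes, Dlg1 and Dlg2 thus had values below and Dlg3 and Dlg4 above those of DCX-DsRed cells in the hippocampus, with the test passed for Dlg2 and Dlg4. Gphn, gephyrin, the scaffold of inhibitory synapses, was at 1.96, 2.30 and 2.04 in DCX-DsRed cells, 1.13, 2.63 and 0.17 in hippocampal Sox2-GFP cells and 0.89, 2.09 and 1.85 in SVZ cells. On the tested probes it overlapped in every comparison, as did Homer1 and Shank3. Another Gphn probe was lower on all hippocampal Sox2-GFP arrays than on the DCX-DsRed arrays, by -2.17. On it the SVZ values lay above the hippocampal Sox2-GFP values, by 1.52. A dimmer Homer1 probe was higher on all hippocampal Sox2-GFP arrays than on the DCX-DsRed arrays, by 2.23. On it the SVZ values lay below the hippocampal Sox2-GFP values, by -1.85. The remaining probes of both genes overlapped.

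**Figure D3:**
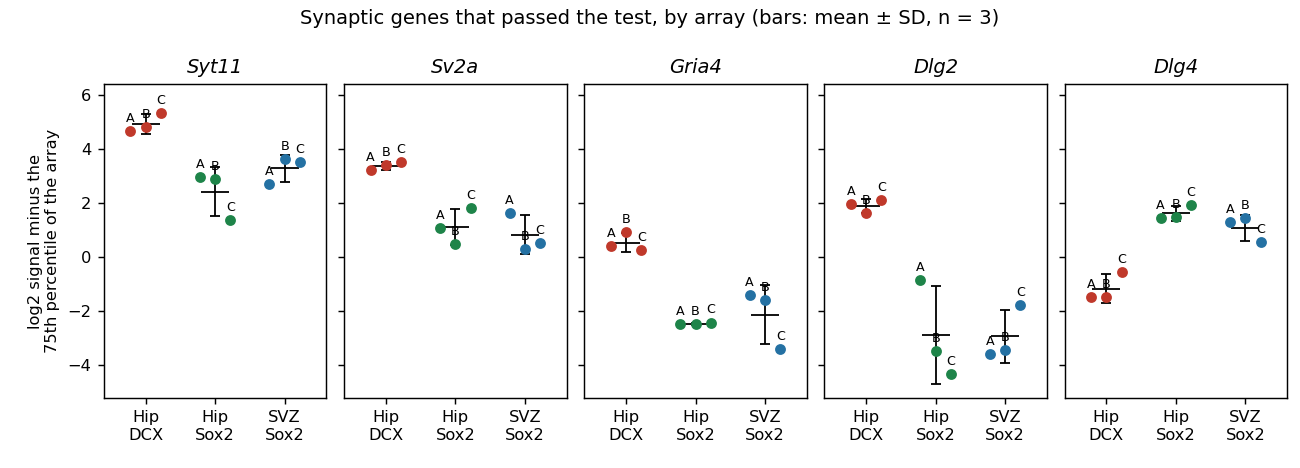
Log2 signal relative to the 75th percentile of the array for the 5 genes that passed the test in any comparison, by population; letters name the array and bars give the mean ± SD of 3 arrays. For Syt11, Sv2a, Gria4 and Dlg2 the 3 DCX-DsRed arrays lie above all 6 others, and for Dlg4 they lie below all 6.

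**Figure D4:**
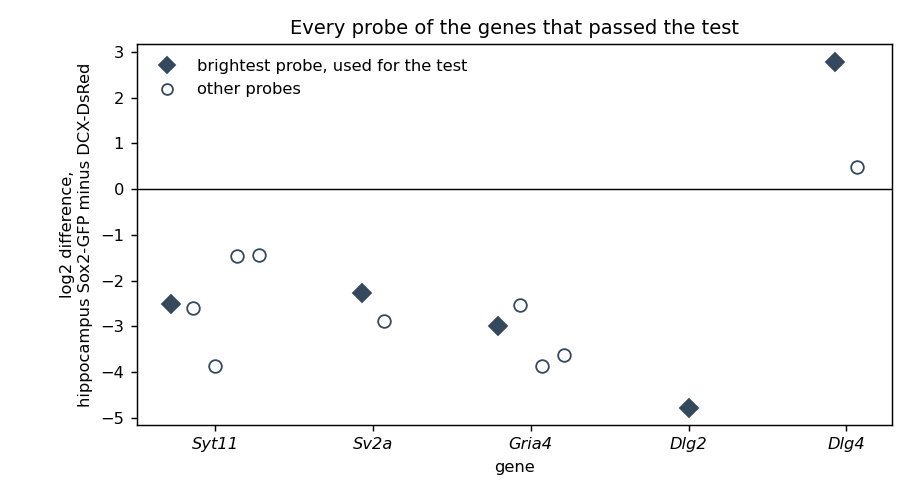
Difference between hippocampal Sox2-GFP and DCX-DsRed cells (log2) for every probe of the 5 genes that passed the test; diamonds are the probe used in the test and circles the others. The circles of Syt11, Sv2a and Gria4 lie on the same side as their diamond, from -3.86 to -1.43, and that of Dlg4 lies at 0.48, well below its diamond at 2.79.

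Synaptic adhesion genes had no call, and their differences between SVZ and DCX-DsRed cells were above 0 for 4 of 4. Nrxn2, a presynaptic neurexin, was at 2.84, 2.91 and 2.84 in DCX-DsRed cells, 3.21, 3.64 and 2.22 in hippocampal Sox2-GFP cells and 3.45, 3.90 and 3.91 in SVZ cells. The SVZ values were above the DCX-DsRed values (0.89 ± 0.40, adjusted p = 0.386). Nlgn1, the neuroligin of excitatory synapses, was at -6.78, -6.59 and -3.55, at -4.40, -3.41 and -8.39 and at -1.80, -6.14 and -3.53 on the arrays of the same populations, with overlap throughout. The tested Nlgn1 probe was well above background on 5 of the 9 arrays. Nlgn2 and Nlgn3 overlapped in every comparison too.

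Calcium and calmodulin genes separated no pair of populations, with overlap for 3 of 3 genes in every comparison. Nrgn, neurogranin, a calmodulin-binding protein of dendritic spines, was at 0.49, 0.18 and -0.27 in DCX-DsRed cells, 1.00, 0.47 and -0.40 in hippocampal Sox2-GFP cells and 0.86, 0.11 and 0.20 in SVZ cells. Camk2b, a subunit of the calcium/calmodulin-dependent kinase, was at -1.27, -2.89 and -4.50, at -2.07, -3.83 and -5.30 and at -3.70, -1.25 and -4.60. Its spread within each population (SD 1.62 to 1.74) was larger than any difference between them. Camk2a, the other subunit, differed by at most 0.80 (log2).

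The 5 genes with calls were compared within slides, since slide 3 carried arrays of all populations and slide 1 those of DCX-DsRed and SVZ cells. On slide 3 alone, where each hippocampal population has 1 array, the hippocampal differences were -3.96 for Syt11, -1.73 for Sv2a, -2.67 for Gria4, -6.43 for Dlg2 and 2.48 for Dlg4. For SVZ against DCX-DsRed cells the slide 1 and slide 3 differences were -1.66 and -3.11 for Sv2a, -5.37 and -4.72 for Dlg2 and 2.76 and 1.54 for Dlg4. All kept the direction of the pooled value, and none passed on 1 slide, where the spread comes from a single pair of arrays. Slide 2 carried only hippocampal Sox2-GFP arrays, A and B. With slide as a term in the fit that population is therefore measured by array C alone. In that fit Sv2a (-1.24, adjusted p = 0.266) and Gria4 (-2.44, adjusted p = 0.127) no longer passed in the hippocampus, whereas Syt11 (-4.04, adjusted p = 0.00496), Dlg2 (-6.65, adjusted p = 0.0324) and Dlg4 (2.89, adjusted p = 0.0421) did. For SVZ against DCX-DsRed cells Sv2a (-2.38, adjusted p = 0.0424) and Dlg2 (-5.05, adjusted p = 0.0393) passed and Dlg4 (2.15, adjusted p = 0.0517) did not. Syt11 passed there in that fit alone among the slide settings (-1.89, adjusted p = 0.0202).

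Every one of these calls ended when some single array was left out. The hippocampal Dlg4 call ended without DCX-DsRed array A (adjusted p = 0.0571) or B (0.0540). Those of Gria4 and Dlg2 ended in 5 of 9 such fits (adjusted p up to 0.0960 and 0.105) and those of Syt11 and Sv2a in 7 of 9 (up to 0.114 and 0.137). Each of these 4 calls was lost without any one DCX-DsRed array and without Sox2-GFP array B. Syt11, Sv2a and Gria4 were also lost without Sox2-GFP array A, Dlg2 without Sox2-GFP array C, and Syt11 and Sv2a without SVZ array B or C. Against SVZ cells Dlg2, Dlg4 and Sv2a were each lost in 7 of 9, with adjusted p up to 0.140, 0.141 and 0.142. Fold differences stayed within 1.5 times the values above in these fits, apart from the 2 given for Dlg2. Sv2a also missed the threshold with arrays scaled to their median (adjusted p = 0.0803 in the hippocampus and 0.0793 in the SVZ comparison), as did Dlg4 in the SVZ comparison (0.0639) and, with quantile normalization, Syt11 in the hippocampus (0.0528). The hippocampal fold of Dlg2 was 9.69 with array weights, 17.0 with normexp background correction and 43.5 with slide as a random block, and it passed in each. That of Syt11 was 3.75 with array weights, and that of Gria4 was 13.6 with the median over its probes (adjusted p = 0.0670).

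Other cell type genes moved with the same comparisons. Of the 12 myelinating oligodendrocyte genes, 12 were lower without overlap in hippocampal Sox2-GFP than in DCX-DsRed cells, 8 past the test, with a median of -4.75; in SVZ cells all 12 were lower, 3 past the test. None of the 12 was below background on all arrays of a population. Oligodendrocyte precursor genes summed to 3.96 to 4.0 in DCX-DsRed cells and to 2.97 to 3.30 in the Sox2-GFP cells of both regions. Of 9 choroid plexus genes, 7 passed with higher levels in the Sox2-GFP cells of the hippocampus than in its DCX-DsRed cells. Of 7 ependymal genes 5 did. Of the 9 mature neuron genes, 1 passed, Snhg11, a neuronal noncoding RNA, lower in both Sox2-GFP populations than in DCX-DsRed cells (-1.98 and -2.12). The list as a whole did not share that sign, with medians of 0.55 (5 of 9 above 0) in the hippocampus and 0.28 (7 of 9) for the SVZ. Astrocyte genes were higher without overlap in SVZ than in DCX-DsRed cells for 8 of 11, 1 past the test, with sums of 6.47 to 7.49 against 4.75 to 5.34. Endothelial genes summed to 3.52 to 4.33 in hippocampal and 2.97 to 4.29 in SVZ Sox2-GFP cells against 1.99 to 2.59 in DCX-DsRed cells, with 2 and 1 of 8 past the test. Their part in the synaptic differences was not tested.

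Presynaptic genes and the receptor, scaffold, adhesion and calcium genes were then compared as groups. Between the hippocampal populations the median difference was -0.84 over the 18 presynaptic genes, with 13 below 0, and -0.38 over the 26 others, with 15 below 0. Arrays lay apart for 9 of 18 presynaptic genes (8 lower and 1 higher) and for 6 of 26 others (4 lower and 2 higher), against 24.7% of all genes (13.2% lower and 11.5% higher), a share that the 6 of 26 (23.1%) did not exceed. Without the hippocampal Sox2-GFP array C the medians were -0.65 and 0.12, and with array weights -0.65 and 0.14. The gap between the medians, -0.46, was -0.76 without the hippocampal Sox2-GFP array C and -0.02 without array B. It was -0.10 on slide 3 alone and 0.19 with slide as a term, settings that use only array C of the hippocampal Sox2-GFP cells, and -0.19 with the mean over all probes of a gene. Between SVZ and DCX-DsRed cells the medians were -0.34 and 0.25, a gap of -0.59, which was -0.97 on slide 1, -0.03 on slide 3 and -0.31 with slide as a term. Between the Sox2-GFP populations both medians were alike, at 0.48 and 0.49. Without the hippocampal Sox2-GFP array C they were 0.20 and 0.05, and on slide 3, which holds only that array of its population, 0.91 and 1.46.

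Seen by array, with each gene set against its own mean, the presynaptic median was 0.47, 0.50 and -0.11 on the DCX-DsRed arrays, -0.11, -0.44 and -0.93 on the hippocampal Sox2-GFP arrays and -0.09, 0.14 and -0.24 on the SVZ arrays. The median of the others was 0.11, 0.06 and 0.34, then 0.24, 0.19 and -1.03, then 0.21, 0.42 and 0.03. The receptor and scaffold genes were thus set apart by 1 array, on which 24 of 26 lay below their own mean, whereas the presynaptic median was below 0 on all 3 hippocampal Sox2-GFP arrays. The DCX-DsRed array C also broke with arrays A and B, with its presynaptic median below and its receptor and scaffold median above theirs. Compared with the mean of arrays A and B, hippocampal Sox2-GFP array C was lower for 22 of 26 receptor and scaffold genes, by a median of -1.23, and for 14 of 18 presynaptic genes, by a median of -0.47. On the same array the summed astrocyte genes stood at 3.99, against 6.44 and 6.63 on arrays A and B, and the myelinating oligodendrocyte genes at 2.5, against 5.23 and 5.45. Their part in the synaptic values was not tested.

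**Figure D5:**
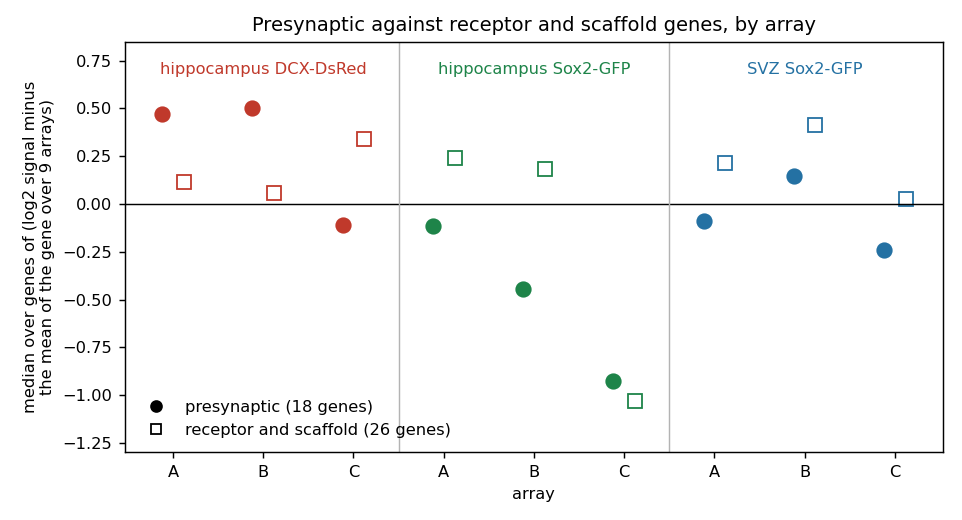
Median over genes of the log2 signal relative to the mean of the gene over 9 arrays, for 18 presynaptic genes (filled circles) and 26 receptor, scaffold, adhesion and calcium genes (open squares), by array. Both medians are lowest on the hippocampal Sox2-GFP array C, at -0.93 and -1.03, and the squares lie above 0 on the 8 other arrays.

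Of the 23 genes with several usable probes, 12 had probes of one sign between the hippocampal populations and 11 had probes of both signs, which in 1 case, Syt1, a calcium sensor of fusion, exceeded 1 in size both ways. With the mean over all probes of a gene, the presynaptic median in the hippocampus was -0.32 in place of -0.84.

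A further 32 presynaptic and 48 receptor and scaffold genes showed how the rest of the synapse behaved. Between the hippocampal populations 1 of 31 tested presynaptic genes passed (3.23%, beside 3.19% of all genes), Syn3, synapsin III, a synapsin of young neurons. It was at -1.72, -0.64 and -0.44 in DCX-DsRed cells, 1.99, 2.04 and 2.65 in hippocampal Sox2-GFP cells and 1.07, 1.40 and 2.64 in SVZ cells. All Sox2-GFP values were higher, by 3.16 ± 0.52 in the hippocampus (adjusted p = 0.0205) and 2.64 ± 0.52 in the SVZ (adjusted p = 0.0560). Of the 3 synapsin genes, Syn1 had its higher hippocampal values in DCX-DsRed cells and Syn2 and Syn3 in Sox2-GFP cells, with the test passed for Syn3 alone. For Syn1 and Syn2 this holds for the tested probe, and other probes of both had the opposite sign (up to 0.41 for Syn1 and -0.25 for Syn2).

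Among 45 tested receptor and scaffold genes 1 passed in the hippocampus (2.22%), Grm7, a presynaptic metabotropic glutamate receptor. It was at 2.29, 2.26 and 2.17 in DCX-DsRed cells, 0.28, 0.39 and -1.06 in hippocampal Sox2-GFP cells and 1.02, 0.51 and 0.47 in SVZ cells, and the hippocampal difference was -2.37 ± 0.43 (adjusted p = 0.0282). Between SVZ and DCX-DsRed cells Grik5, a kainate receptor subunit, passed, as 1 of 45 (2.22%, beside 1.52% of all genes). It was at -3.58, -4.31 and -3.86 in DCX-DsRed cells, -1.86, -0.99 and -3.15 in hippocampal Sox2-GFP cells and -0.31, -0.38 and -0.30 in SVZ cells, a difference of 3.59 ± 0.53 (adjusted p = 0.0202). None of these 76 genes passed between the Sox2-GFP populations, where the smallest adjusted p was 0.372 among presynaptic genes (Snap91) and 0.272 among the others (Gabrg3). The median hippocampal difference of the further presynaptic genes was 0.05, with 14 of 31 below 0, and that of the further receptor and scaffold genes was -0.16, with 26 of 45 below 0.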

How the data were processed

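The members and gene lists were chosen with earlier results of these data known. RNA of 1000 sorted cells was amplified (SuperAmp), labelled with Cy3 and read on 9 Agilent whole-genome arrays, 3 a population. The deposited files hold intensities per spot made with Feature Extraction 9.5.1.1, per the file headers: the processed signal is the spot's mean signal after the software's spatial background surface was subtracted and its multiplicative detrending applied. Per the submitters' processing notes limma was used; its version and model are not given in the sources used here.

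Here log2 of the processed signal was taken minus the 75th percentile of its array (41174 probes). Probes whose spots were all flagged as outliers on at least 1 array were dropped (464), leaving 40710. Spots well above background made up 80.5% to 88.6% of an array, and 0 were saturated; the number of arrays limits the precision. Gene names were updated through RefSeq's table (GRCm38.p6): 23075 probes by accession and 3072 by older symbol, while 15027 kept the file's name. Probe names came from files other than the first DCX-DsRed array's, whose symbols held 47 altered entries. The brightest probe of each gene that was well above background on at least 3 of 9 arrays was tested with limma 3.58.1 in R 4.3.3 (3 groups, 6 residual degrees of freedom, Benjamini-Hochberg over 24896 genes). The code was tested on simulated data.

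Values for each array are given for members that passed any test, for those apart by at least 2 (log2), and, per role, for the member with the highest mean and the one with the largest difference; other members are given by ranges and counts. Of further synaptic genes, up to 3 called per list and comparison were named, or the one with the smallest p. The brighter probes of Gria1, Gria2 and Grin2b, each flagged on 1 array, were named after their values were seen. So were the other probes given for Snap25, Vamp2, Cplx2, Gphn, Homer1, Gabra2 and Grin2b. The 26 alternatives covered background, scaling, filters, probe choice, names, slides, the replicate letter, array weights and each array left out. The labels do not say whether replicate letters pair the samples, and the main fit did not pair them. Same-letter correlations of residuals ran from -0.04 to 0.12.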

Additional observations from a re-analysis of the deposited data

How the results depend on the processing

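No difference of a synaptic gene that passed the test changed sign under any of the 24 to 26 alternatives run for it. Of these, 2 were chosen after seeing the data: flagged probes kept and the median over all probes of a gene. Between the hippocampal populations 793 genes of the whole array passed; this was 2034 with slide as a fixed block, 0 on slide 3 alone, 485 with the replicate block and 5504 with array weights, and 248 to 783 with 1 array left out. Of the synaptic genes 5 passed; this was 3 with gene names as in the files (which drop Dlg2 and Dlg4), 0 on slide 3, 2 with the replicate block (Dlg4 and Gria4), 2 with only both groups in the fit, 12 with array weights and 0 to 5 with 1 array left out. The gap between the presynaptic and the receptor and scaffold medians (-0.46) was 0.19 with the slide block, -0.10 on slide 3, -0.19 with the mean over probes and -0.76 to -0.0206 with 1 array left out.

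Between SVZ and DCX-DsRed cells 379 genes passed, against 795 with slide as a fixed and 837 as a random block, 0 on slide 3, 0 on slide 1, 186 with the replicate block, 1254 with array weights and 49 to 852 with 1 array left out. Of the synaptic genes 3 passed, against 1 with median scaling, 1 with the files' names, 5 with the random slide block, 0 on slide 3, 0 on slide 1, 0 with the replicate block, 1 with only both groups, 6 with array weights and 0 to 4 with 1 array left out. The gap (-0.59) was -0.0256 on slide 3, -0.97 on slide 1, -0.31 with the slide block and -0.72 to -0.32 with 1 array left out.

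Between the Sox2-GFP populations 100 genes passed, against 157 with normexp, 54 with probes above background on all 9 arrays, 173 with the mean and 162 with the median over probes, 2152 with the slide block, 0 on slide 3, 13 with the replicate block, 8 with only both groups, 348 with array weights and 35 to 102 with 1 array left out. Of the synaptic genes 0 passed, against 8 with the slide block, which measures the hippocampal Sox2-GFP cells by array C alone, and 0 with any 1 array left out. The gap (-0.01) was -0.71 with the slide block, -0.55 on slide 3 and -0.14 to 0.18 with 1 array left out.

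The labels do not say what the replicate letters stand for, so calls lost under the replicate block are given without a reading. The causes of these changes were not tested, apart from the smaller fits and the slide block described. With 3 arrays a population, 1000 cells an array and levels near background for Grin2a, Syt4 and Slc17a7, small differences were not detectable. On their tested probes Gria1, Grm3 and Nlgn1 were near background on some arrays as well.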
